A study of Mus musculus with 6 samples.

Results

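The lipid storage and lipolysis genes of fat cells described here were Fabp4, Lpl, Lipe, Pnpla2, Scd1, Adipoq and Pparg. They were selected on their symbols in the platform annotation, with their ratios in these arrays already known, so the 3 comparisons describe them and give no test. All 7 genes were found, each on 1 probe, among 18545 named genes on 20924 probes. Mouse RNA from 3 sources was compared pairwise on 2-colour arrays, in 3 dye swaps of 2 arrays each: testis, epididymis, and adipose tissue reduced to its stromal vascular fraction (SVF). The labels name 3 RNA samples, 1 per tissue, with no treatment, strain, sex or age and no number of animals or pooling, and they do not name the fat depot of the SVF. SVF is what remains of digested fat once the buoyant fat cells are removed, and holds progenitors, endothelial cells and leukocytes.

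A fat cell stores fatty acids as triglyceride in a lipid droplet. Lipoprotein lipase (Lpl), secreted by fat cells, muscle and macrophages, frees fatty acids from lipoproteins at the capillary wall, and Fabp4 carries them in the cytosol of fat cells, macrophages and capillary endothelium. Stearoyl-CoA desaturase (Scd1) makes the monounsaturated fatty acids that are preferred for triglyceride. Adipose triglyceride lipase (Pnpla2) and hormone-sensitive lipase (Lipe) take the store apart in sequence. Lipe also splits cholesteryl esters in steroid-making cells and is needed for sperm formation in mice. Pparg is the nuclear receptor that directs fat cell differentiation, and adiponectin (Adipoq) is a hormone secreted by mature fat cells.

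Each value below is a log2 ratio of the tissue named first over the second, and array 1 carried the first tissue in Cy5. The direction is likely rather than stated, and takes Cy5 as the numerator of the deposited ratio. With it, 12 of 12 late germ cell markers were higher in testis than in SVF (median 4.60). Of epididymal epithelium markers, 12 of 12 had epididymis above SVF (median 4.37). By the rule given below, 20.7% and 10.2% of all genes were called in these directions. The arrays of a dye swap correlated negatively as deposited (Pearson's r from -0.86 to -0.64 across probes), which shows exchanged dyes but not which channel is the numerator. The reading as base 2 is by convention. Means are given ± SD over the 2 arrays of a dye swap (n = 2 hybridisations of the same RNAs), which leaves out differences between animals. A gene was called higher in a tissue when it was at least 2-fold higher there on both arrays. In RNA of whole tissues, fewer cells of a type and less RNA per cell cannot be told apart, and a ratio gives no level.

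The 7 genes did not move as a group. Fabp4 and Lpl were highest in SVF, intermediate in epididymis and lowest in testis. Scd1 was highest in epididymis and lowest in testis. The lipases Lipe and Pnpla2 ran the other way, with testis highest and no clear order between epididymis and SVF. Adipoq differed by at most 2.32-fold and Pparg was within 2-fold everywhere. In testis against SVF, 4 of the 7 were called higher in SVF and 2 higher in testis, against 16.0% and 20.7% of all genes, or 36.7% in either direction. In epididymis against SVF, 2 were called higher in SVF and 1 higher in epididymis, against 8.68% and 10.2% of all genes (18.9% in either direction). In epididymis against testis, 3 were called higher in epididymis and 2 higher in testis, against 14.3% and 18.0% of all genes (32.3% in either direction). The members were chosen with these values known, so nothing is read from the counts. Their median log2 ratios in the same order of comparisons were -1.22, -0.18 and 0.32, beside 0.00, 0.07 and -0.00 for all genes.

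**Figure D1:**
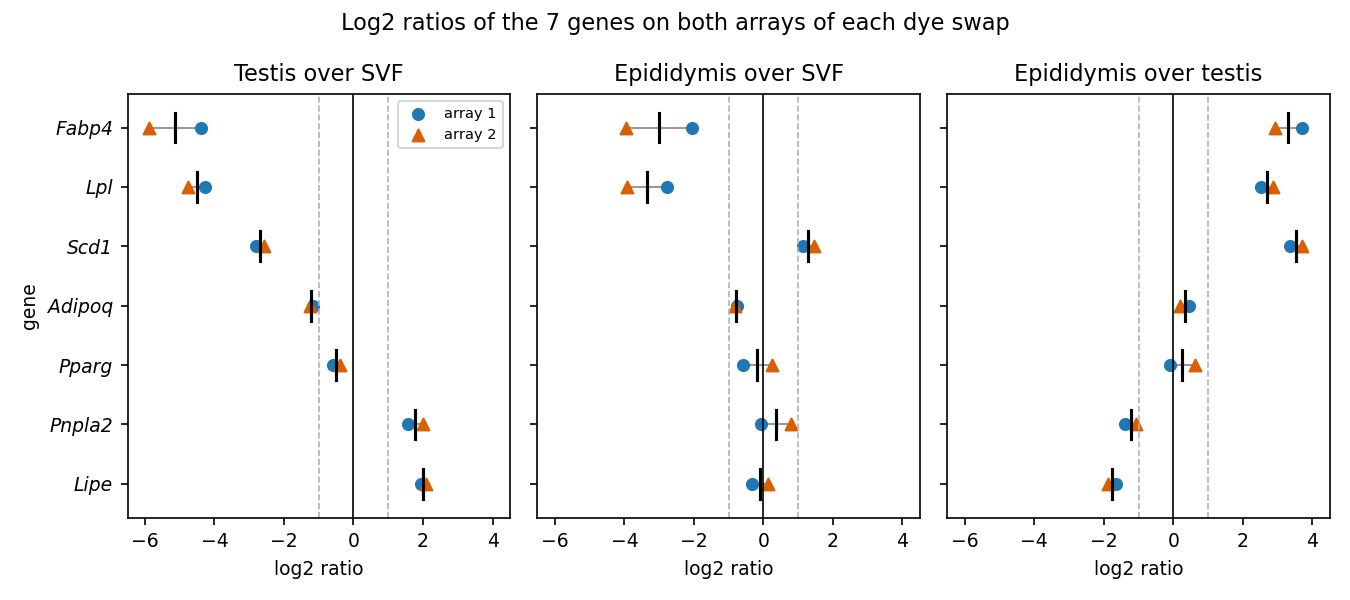
Log2 ratio (x axis) of each gene (rows) in the 3 comparisons (panels), with circles for array 1, triangles for array 2, a black bar for their mean and dashed lines at 2-fold. Fabp4 and Lpl lie far to the left in both comparisons with SVF, Scd1 changes side between them, and Lipe and Pnpla2 lie on the testis side in both comparisons that include testis.

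Fatty acid uptake and transport was represented by Lpl and Fabp4. For Fabp4 the log2 ratio of testis over SVF was -4.40 on array 1 and -5.87 on array 2. Its ratio of epididymis over SVF was -2.06 and -3.96, and that of epididymis over testis 3.69 and 2.93. Each array compared 2 tissues, and put together the 6 arrays gave the order SVF, epididymis, testis, with every ratio past 2-fold. The means were -5.14 ± 1.04 (35.2-fold higher in SVF than in testis), -3.01 ± 1.35 (8.06-fold higher in SVF than in epididymis) and 3.31 ± 0.54 (9.93-fold higher in epididymis than in testis). Of all named genes, 0.334% had a lower ratio of testis over SVF than Fabp4.

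Lpl had log2 ratios of testis over SVF of -4.26 and -4.76. Its ratios of epididymis over SVF were -2.77 and -3.93, and those of epididymis over testis were 2.52 and 2.88. Put together, the 2 arrays of each pair of tissues gave the same order as for Fabp4. The mean ratios were -4.51 ± 0.35 (22.8-fold higher in SVF than in testis) and -3.35 ± 0.82 (10.2-fold higher in SVF than in epididymis). For epididymis over testis the mean was 2.70 ± 0.25 (6.48-fold higher in epididymis than in testis). The widest gap between arrays among the 7 genes was that of Fabp4 in epididymis against SVF, at 1.91. Its SD there was exceeded by 5.80% of all genes, and that of Lpl by 17.5%.

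The direct ratios of Fabp4 and Lpl did not add up around the 3 tissues. Subtracting the 2 ratios over SVF gave epididymis over testis as 2.13 for Fabp4 and 1.16 for Lpl, lower than the direct 3.31 and 2.70. The gaps were 1.18 and 1.53, and 5.07% and 2.60% of all genes had a larger one in size. For the other 5 genes the gap was at most 0.43 in size. The order of the tissues for Fabp4 and Lpl was the same by either route, while the fold between epididymis and testis depended on it. By least squares over all 6 arrays it was 2.92 for Fabp4 and 2.19 for Lpl on the log2 scale.

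**Figure D2:**
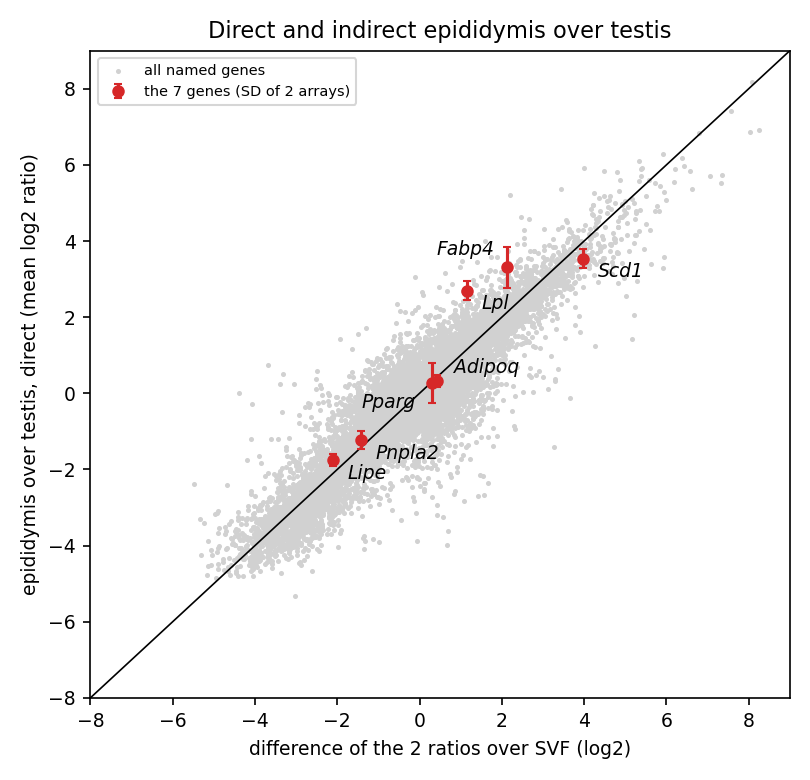
Epididymis over testis measured directly (y axis, mean log2 ratio) against the difference of the ratios of epididymis and testis over SVF (x axis), for all named genes in grey and the 7 genes in red with the SD of 2 arrays. The line marks equality: Fabp4 and Lpl lie above it by 1.18 and 1.53, and the other 5 within 0.43 of it.

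Lipid synthesis was represented by Scd1, which gave the largest direct difference between epididymis and testis of the 7. Its log2 ratio of testis over SVF was -2.81 and -2.56, that of epididymis over SVF 1.13 and 1.45, and that of epididymis over testis 3.37 and 3.71. Put together, the 2 arrays of each pair of tissues placed epididymis first, SVF second and testis last. The means were -2.69 ± 0.17 (6.43-fold higher in SVF than in testis), 1.29 ± 0.22 (2.44-fold higher in epididymis than in SVF) and 3.54 ± 0.24 (11.6-fold higher in epididymis than in testis). The step from SVF to epididymis was the smaller one, and its lower array was just past 2-fold. Probe sequences were not used here, so signal shared with the related desaturase genes Scd2 and Scd3 cannot be told apart.

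The lipases were higher in testis. Lipe had log2 ratios of testis over SVF of 1.93 and 2.08 and of epididymis over testis of -1.65 and -1.87. Its means were 2.01 ± 0.10 (4.02-fold higher in testis than in SVF) and -1.76 ± 0.16 (3.39-fold higher in testis than in epididymis). Between epididymis and SVF the arrays fell on opposite sides, at -0.34 and 0.12 (mean -0.11 ± 0.33), so these tissues were not separated. Pnpla2, which acts before Lipe on triglyceride, was at 1.57 and 1.99 for testis over SVF and -1.38 and -1.06 for epididymis over testis. Its means were 1.78 ± 0.30 (3.43-fold) and -1.22 ± 0.23 (2.33-fold), both higher in testis. Epididymis and SVF again gave opposite signs, at -0.08 and 0.78 (mean 0.35 ± 0.61). Neither lipase reached 4-fold on both arrays of any comparison.

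Promoter sequence from RefSeq (GRCm38.p6) was held for 4 of the 7 genes, Lipe, Pnpla2, Adipoq and Pparg. The windows of Lipe and Pnpla2 are shown because these were the members called toward testis in both comparisons that include it, and that of Adipoq as a fat cell gene beside them. Each holds the 250 bases before an annotated start. Lipe has 2 such starts, 5875 bases apart, and testis is known to use a first exon of its own in this gene. The deposited ratio does not say which start was used. The first Lipe window is chr7:25395988-25396237 and the second chr7:25390113-25390362, both on the minus strand. The window of Pnpla2 is chr7:141454938-141455187 and that of Adipoq chr16:23146286-23146535, both on the plus strand. Capitals mark matches on either strand to the GC box GGGCGG, the CCAAT box, the nuclear receptor core AGGTCA, the TATA box TATAAA, the E-box CACGTG or the C/EBP motif TTGCNNAA. Neighbouring GC boxes can overlap.
Lipe, first start: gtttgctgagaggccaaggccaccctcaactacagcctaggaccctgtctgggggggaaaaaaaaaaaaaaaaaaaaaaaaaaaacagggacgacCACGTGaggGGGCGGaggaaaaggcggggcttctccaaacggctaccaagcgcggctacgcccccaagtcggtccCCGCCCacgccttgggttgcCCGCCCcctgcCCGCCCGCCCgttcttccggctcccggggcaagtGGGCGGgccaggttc
Lipe, second start: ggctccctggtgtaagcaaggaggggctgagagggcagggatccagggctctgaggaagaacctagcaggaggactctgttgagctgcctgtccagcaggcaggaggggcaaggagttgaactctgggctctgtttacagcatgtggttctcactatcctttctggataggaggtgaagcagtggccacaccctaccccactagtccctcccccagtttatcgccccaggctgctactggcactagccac
Pnpla2: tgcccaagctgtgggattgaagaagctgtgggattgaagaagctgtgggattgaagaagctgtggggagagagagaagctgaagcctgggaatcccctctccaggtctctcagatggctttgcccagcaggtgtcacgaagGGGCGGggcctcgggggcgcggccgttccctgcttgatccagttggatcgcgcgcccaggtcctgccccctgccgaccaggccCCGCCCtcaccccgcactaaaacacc
Adipoq: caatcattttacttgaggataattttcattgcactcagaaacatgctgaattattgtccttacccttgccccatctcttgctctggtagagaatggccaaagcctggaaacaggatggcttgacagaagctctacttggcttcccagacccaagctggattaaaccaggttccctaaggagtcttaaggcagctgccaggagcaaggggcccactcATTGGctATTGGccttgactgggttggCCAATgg

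The first Lipe window held 6 GC boxes and 1 E-box, and the second held none of these motifs. The Pnpla2 window held 2 GC boxes and the Adipoq window 3 CCAAT boxes, the nearest 7 bases before its start. Among 32851 windows of the same length, 32.7% held the GC box, 33.8% the CCAAT box, 14.0% the nuclear receptor core, 12.4% the TATA box, 6.02% the E-box and 9.56% the C/EBP motif. A direct repeat of AGGTCA with 1 base between is the classical element for Pparg and its partner Rxra. It was in 0.0335% of all windows and in none of the 7 windows of these 4 genes. At so low a share, its absence from 7 windows says nothing about these genes. Among other motifs, the first and second Pparg windows, not shown, held the AGGTCA core, 28 and 9 bases before their starts. The second also held the TATA box, and the third the C/EBP motif. These are matches of letters, not binding sites.

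Adipoq, the mature fat cell hormone, was at -1.17 and -1.26 for testis over SVF. Its ratios of epididymis over SVF were -0.77 and -0.82, and those of epididymis over testis were 0.44 and 0.21. Put together, the 2 arrays of each pair of tissues gave the order SVF, epididymis, testis, with small gaps between arrays. Only the ratio of testis over SVF was called, at -1.22 ± 0.07 (2.32-fold higher in SVF), and it lay just past the 2-fold line. The mean of epididymis over SVF was -0.79 ± 0.03 and fell short of it, and that of epididymis over testis was 0.32 ± 0.17. Adipoq was thus just inside the threshold in one comparison and just outside it in another. On a single array, 2 called members lay nearer the line, Pnpla2 for epididymis over testis (-1.06) and Scd1 for epididymis over SVF (1.13).

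Pparg was not called in any comparison. Its log2 ratio of testis over SVF was -0.60 and -0.38 (mean -0.49 ± 0.15), that of epididymis over SVF -0.59 and 0.23 (mean -0.18 ± 0.58), and that of epididymis over testis -0.11 and 0.63 (mean 0.26 ± 0.52). Only testis and SVF were ordered the same way by both arrays. On 2 of the 6 arrays its deposited value was identical to that of another probe (to 9 decimals), which held for 5.86% to 16.0% of all probes on an array and for no other member on any array. The part of signal strength in this was not tested, as spot intensities were not used here.

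**Figure D3:**
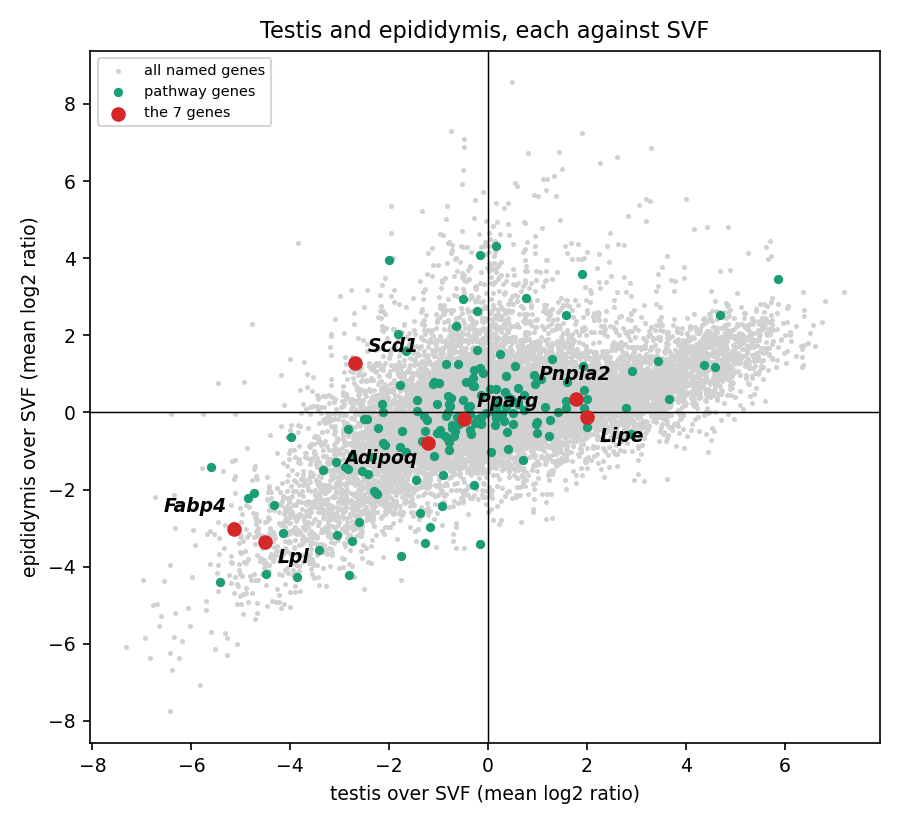
Mean log2 ratio of testis over SVF (x axis) against that of epididymis over SVF (y axis) for all named genes (grey), 170 pathway genes (green) and the 7 genes (red). Fabp4 and Lpl lie at the lower left, Scd1 at the upper left, and Lipe and Pnpla2 to the right near 0 on the y axis; both axes share the SVF RNA, so a slope in this plot is no result.

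The tissues were checked against their markers. Beside the germ cell and epididymal markers given above, those of SVF cell types were read. Toward SVF and against testis, 8 of 10 macrophage markers, 9 of 12 endothelial markers and 9 of 11 mesenchymal progenitor markers were called higher. Against epididymis these counts were 9, 8 and 6. Of all genes, 16.0% were called higher in SVF than in testis and 8.68% higher in SVF than in epididymis. The median log2 ratios of these marker lists were -3.39, -2.37 and -3.22 for testis over SVF. For epididymis over SVF they were -3.11, -2.29 and -1.92. Macrophages and capillary endothelium are known to express Fabp4, and macrophages Lpl, and the part of these cells in the ratios of Fabp4 and Lpl was not tested.

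Markers of mature fat cells were mixed. Of the 12, 41.7% were called between testis and SVF, 16.7% between epididymis and SVF and 50% between epididymis and testis. The shares of all genes were 36.7%, 18.9% and 32.3%. In testis against SVF, 5 of 12 were called, each toward SVF (median -0.69). These were the droplet protein gene Cidec (-3.07 ± 0.34), the hormone genes Retn (-2.82 ± 0.02) and Lep (-2.12 ± 0.13), Car3 (-1.43 ± 0.23) and the insulin-responsive glucose transporter gene Slc2a4 (-1.39 ± 0.12), the last named after its values were seen. Of the markers not called there, Cidea (1.00 ± 0.35) and Tshr (1.46 ± 2.31) had means toward testis. The droplet gene Plin1 was at -0.76 ± 1.17, with arrays of opposite sign. In epididymis against SVF, Cidec was higher in SVF (-1.28 ± 0.21) and Car3 higher in epididymis (1.49 ± 0.30), with a list median of -0.27. In epididymis against testis, 6 of 12 were called higher in epididymis and 0 higher in testis (median 0.83). Among those called, Retn was at 2.14 ± 0.26, Car3 at 2.11 ± 0.13 and Lep at 2.09 ± 0.16. The 6 not called had means below 0, with Cidea at -1.24 ± 0.83, Tshr at -0.85 ± 1.17 and Plin1 at -0.01 ± 2.07. Cidea, Tshr and Plin1 were named after their values were seen. The part of fat cells left in the SVF or attached to the epididymis in these ratios was not tested.

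In Leydig cells, which make testosterone, hormone-sensitive lipase is known to release cholesterol. Of 8 Leydig cell markers, 7 were called higher in testis than in SVF (median 2.56), with Cyp11a1 at 4.74 ± 1.26, and 5 higher in testis than in epididymis (median -1.73). Of 12 Sertoli cell markers, 5 were called higher in testis than in SVF (median 0.61). Between epididymis and testis, 5 of them were higher in testis and 1 higher in epididymis (median -0.73). Of all genes, 20.7% were called higher in testis than in SVF and 18.0% higher in testis than in epididymis. Between epididymis and SVF, 11 of 12 late germ cell markers were called higher in epididymis (median 2.16). For Leydig cell markers this was 0 of 8 (median 0.60), and for Sertoli cell markers 4 of 12, with 1 toward SVF (median 0.88). Of all genes, 10.2% were called higher in epididymis than in SVF and 8.68% higher in SVF. Lipe and Pnpla2 were not called in that comparison. The part of each testis cell type in the lipase ratios was not tested.

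Other genes of lipid storage came from 9 lists with 170 measured genes of 191, chosen with earlier results of these data known. In testis against SVF, 49 of the 170 were called higher in SVF and 21 higher in testis (median -0.42). Between epididymis and SVF, 30 pointed to SVF and 20 to epididymis (median -0.10). Between epididymis and testis, 42 pointed to epididymis and 26 to testis (median 0.19). The shares called in either direction were 41.2%, 29.4% and 40.0%, beside 36.7%, 18.9% and 32.3% of all genes.

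**Figure D4:**
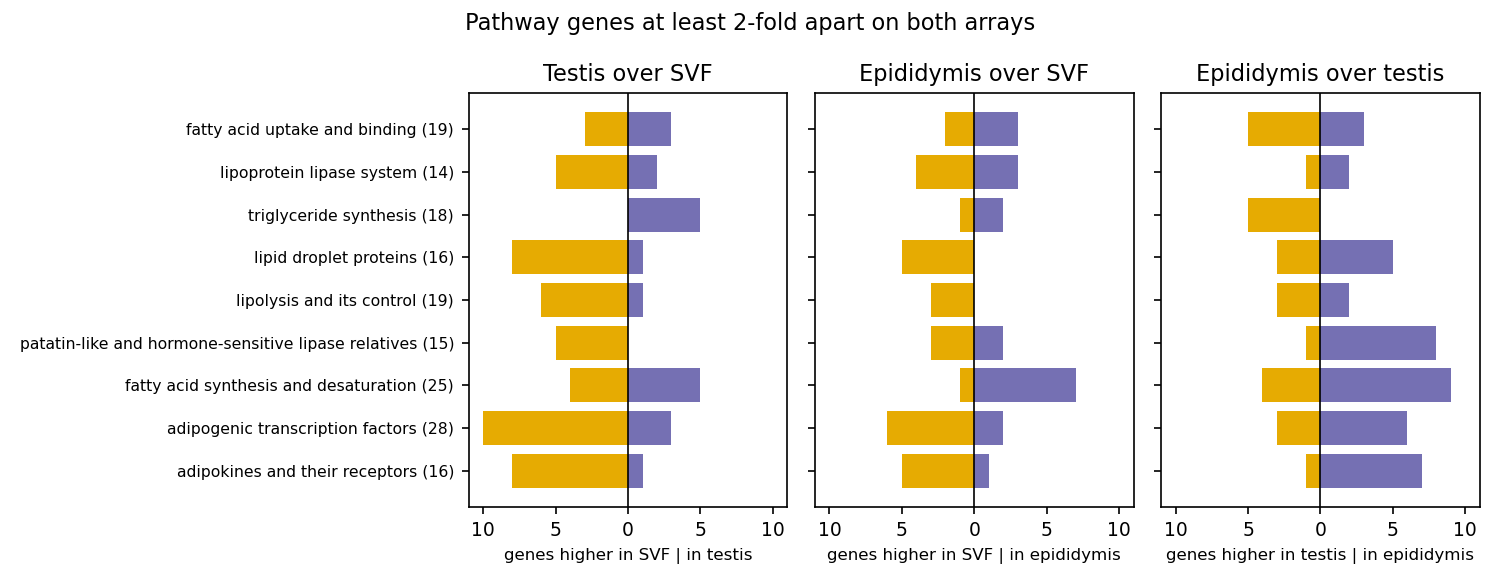
Number of genes (x axis) of each list (rows, with the number measured) called at least 2-fold apart on both arrays, in the 3 comparisons (panels). Bars to the right count genes higher in the tissue named first and bars to the left genes higher in the second. In triglyceride synthesis, 5 of 18 genes point to testis against SVF and 0 to SVF (27.8% called, beside 36.7% of all genes).

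Partners of Lpl and Fabp4 followed them in part. In the lipoprotein lipase system, 5 of 14 genes were called higher in SVF than in testis and 2 higher in testis (median -0.72). The capillary anchor of the enzyme, Gpihbp1, was at -3.05 ± 0.49, its inhibitor Angptl4 at -2.75 ± 0.18 and its activator Apoc2 at -2.30 ± 0.07. All 3 were also higher in SVF than in epididymis, Gpihbp1 at -3.17 ± 0.66, Angptl4 at -3.33 ± 0.58 and Apoc2 at -2.05 ± 0.21. Unlike Lpl, none of them was called between epididymis and testis, where Gpihbp1 was at 0.07 ± 0.21. Apoc1, an apolipoprotein known to inhibit Lpl, was higher in testis (1.58 ± 0.70) and in epididymis (2.53 ± 0.99) than in SVF. The receptor gene Vldlr was higher in SVF than in testis at -5.61 ± 2.12 and higher in epididymis than in testis at 4.71 ± 1.38, with wide gaps between arrays. The endothelial lipase gene Lipg was higher in epididymis than in SVF (2.24 ± 0.78). Calls made up 50%, 50% and 21.4% of the list, beside 36.7%, 18.9% and 32.3% of all genes.

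Fatty acid uptake and binding genes were called between testis and SVF at a share of 31.6%, below the 36.7% of all genes. The share was 26.3% between epididymis and SVF and 42.1% between epididymis and testis, above the 18.9% and 32.3% of all genes. Of 19 genes, 3 were called higher in SVF than in testis and 3 higher in testis (median -0.28, with 0.15 on array 1 and -0.39 on array 2). The fatty acid translocase gene Cd36 was higher in SVF, at -4.14 ± 0.45 for testis over SVF and -3.13 ± 0.58 for epididymis over SVF. The epidermal relative of Fabp4, Fabp5, was higher in SVF than in epididymis at -2.09 ± 0.98. The testis relative Fabp9 ran the other way from Fabp4, at 4.70 ± 1.00 for testis over SVF, 2.53 ± 0.66 for epididymis over SVF and -3.68 ± 0.81 for epididymis over testis. The heart form Fabp3 was higher in testis than in SVF at 2.91 ± 0.11, as was the acyl-CoA synthetase gene Acsl6 at 4.37 ± 0.20. Set against SVF, epididymis was higher for 3 genes and lower for 2 (median 0.07), with the transporter gene Slc27a2 at 2.95 ± 0.07. Set against testis, it was higher for 3 and lower for 5 (median 0.31).

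Droplet proteins were higher in SVF than in testis for 8 of 16 genes, and 1 was higher in testis (median -1.05). The caveolin gene Cav1 was at -4.74 ± 0.04 and Cav2 at -3.98 ± 0.25. Seipin, Bscl2, which shapes new droplets, was higher in testis (1.94 ± 0.33). For epididymis over SVF 5 were called, each toward SVF (median -0.58). Plin2, a droplet coat of many cell types, was at -4.21 ± 0.15 there, and Hilpda, a hypoxia-induced inhibitor of Pnpla2, at -3.73 ± 0.08. Epididymis exceeded testis for 5 droplet genes and testis exceeded epididymis for 3 (median 0.11), with the fat cell perilipin gene Plin4 at 2.65 ± 0.32. Of the list, 56.2%, 31.2% and 50% were called, beside 36.7%, 18.9% and 32.3% of all genes.

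Genes that control lipolysis were called at shares of 36.8%, 15.8% and 26.3%, near or below the 36.7%, 18.9% and 32.3% of all genes. Of 19 genes, 6 were called higher in SVF than in testis and 1 higher in testis (median -0.80). G0s2, an inhibitor of Pnpla2, was at -2.43 ± 0.15 for testis over SVF and -1.61 ± 0.20 for epididymis over SVF. The protein kinase A genes Prkacb and Prkar1a were at -1.79 ± 0.48 and -1.66 ± 0.70 for testis over SVF. The single gene higher in testis was Pde3b (1.60 ± 0.81), the phosphodiesterase by which insulin restrains lipolysis. Mgll, which completes triglyceride breakdown after Lipe, was called higher in SVF than in testis at -1.24 ± 0.28, and Abhd5, the activator of Pnpla2, was at -0.80 ± 0.42 and not called. Mgll and Abhd5 were named after their values were seen. Between epididymis and SVF 3 genes were called, each toward SVF (median -0.20). Between epididymis and testis 2 pointed to epididymis and 3 to testis (median 0.47).

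Of 15 lipase relatives, Pnpla7 alone had a mean above 0 for testis over SVF, the side of Lipe and Pnpla2. Among the 15 genes, 5 were called between testis and SVF, each toward SVF (median -0.78), led by Pnliprp2 (-3.86 ± 0.41), the cholesteryl ester hydrolase gene Nceh1 (-2.83 ± 0.21) and the lysosomal lipase gene Lipa (-2.35 ± 0.42). The patatin-like relative Pnpla8 was at -1.43 ± 0.07. Epididymis exceeded testis for 8 of these relatives, and testis exceeded epididymis for 1, Pnpla7 (-1.88 ± 0.23), with a median of 1.12. Pnpla7 was at 1.23 ± 0.41 for testis over SVF, short of a call on array 1 (0.94), and at -0.61 ± 0.54 for epididymis over SVF. Against SVF, epididymis was higher for 2 and lower for 3 (median 0.05), with the phospholipase gene Lipi at 4.09 ± 1.86. Shares called were 33.3%, 33.3% and 60%, beside 36.7%, 18.9% and 32.3% of all genes.

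Triglyceride synthesis genes were called at shares of 27.8%, 16.7% and 27.8%, below the 36.7%, 18.9% and 32.3% of all genes. In testis against SVF, 5 of 18 were called higher in testis with 0 toward SVF (median 0.31). The glycerol-3-phosphate acyltransferase genes Gpat2, Gpat3 and Gpat4 were at 4.59 ± 0.57, 3.66 ± 0.01 and 1.58 ± 0.17, and the phosphatidate phosphatase gene Lpin1 at 3.45 ± 0.73. Against epididymis, 5 of 18 again pointed to testis and 0 to epididymis (median -0.16), with Gpat2 at -3.45 ± 0.10. The epididymis was above SVF for 2 and below it for 1 (median 0.34). The final acyltransferases Dgat1 and Dgat2, named after their values were seen, were not called in any comparison, with means between -0.97 and 0.38.

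Fatty acid synthesis and desaturation genes were called higher in epididymis than in SVF for 7 of 25 members and in SVF for 1 (median 0.52), the side on which Scd1 lay. The ATP citrate lyase gene Acly was at 4.31 ± 0.92, the elongase gene Elovl6, which lengthens the substrate of Scd1, at 3.95 ± 0.38, and the Scd1 relative Scd2 at 2.97 ± 0.39. Against testis, 9 pointed to epididymis and 4 to testis (median 0.64), with Acly at 4.06 ± 0.03 and Elovl6 at 3.58 ± 1.38. The comparison of testis and SVF gave 5 toward testis and 4 toward SVF (median 0.13). Elovl2, which makes very long polyunsaturated fatty acids, was at 5.87 ± 0.15 and malic enzyme, Me1, at 2.89 ± 0.07, while Insig1, a brake on lipid synthesis, was at -2.13 ± 0.07 and Elovl6 at -2.01 ± 0.26. Scd2 was not lower in testis than in SVF, at 0.76 ± 0.42, where Scd1 was at -2.69 ± 0.17. Calls made up 36%, 32% and 52% of the list, beside 36.7%, 18.9% and 32.3% of all genes.

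Transcription factors of fat cell formation were called higher in SVF than in testis for 10 of 28 genes and in testis for 3 (median -0.35). Pparg, as a member, was not in this list. The early factors Cebpb and Cebpd were at -4.85 ± 0.20 and -4.50 ± 0.59, and the progenitor factor Ebf2 at -3.43 ± 0.10. Cebpd and Ebf2 were also higher in SVF than in epididymis (-4.19 ± 1.38 and -3.57 ± 0.18), where 6 genes pointed to SVF and 2 to epididymis (median -0.31). Those 2 were Gata3 (2.03 ± 0.31) and Klf15 (1.25 ± 0.13). Cebpa, which works beside Pparg in late differentiation, was at 0.06 ± 2.45 for testis over SVF, with its 2 arrays far apart. Rxra, the partner of Pparg, was at -0.34 ± 0.17. Both were named after their values were seen. Against testis, 6 factors pointed to epididymis and 3 to testis (median -0.00). Of the list, 46.4%, 28.6% and 32.1% were called, beside 36.7%, 18.9% and 32.3% of all genes.

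Adipokines and their receptors were called higher in SVF than in testis for 8 of 16 genes and in testis for 1 (median -1.15). Retnla, a resistin-like gene of macrophages, was at -5.43 ± 1.24, chemerin, Rarres2, at -4.33 ± 0.54 and Nampt at -2.88 ± 0.42. The adiponectin receptor gene Adipor2 was at -2.09 ± 0.37 and Adipor1 at 1.08 ± 0.18, and the latter was not called. Both receptors were named after their values were seen. Between epididymis and SVF 5 adipokine genes pointed to SVF and 1, Lcn2 (3.60 ± 1.05), to epididymis (median -0.71). Against testis, 7 pointed to epididymis and 1 to testis (median 0.78). Shares called were 56.2%, 37.5% and 50%, beside 36.7%, 18.9% and 32.3% of all genes.

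Likeness of pattern was measured as the root mean squared difference over the 6 arrays. Nearest to Fabp4 were Cd34 (0.30), a surface marker of progenitors and endothelium, Trib1 (0.37) and Pmp22 (0.55), and 2 genes lay within 0.5 of it. Nearest to Lpl were the myeloid adaptor gene Tyrobp (0.29), Pmp22 (0.44) and the ficolin gene Fcna (0.44), with 12 genes within 0.5. Fabp4 and Lpl were 0.72 apart. Nearest to Scd1 were the lysosomal protease gene Ctsd (0.11), Plekha1 (0.16) and Igbp1 (0.28), with 25 genes within 0.5.

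The patterns of the other members were more common. Nearest to Lipe were Cpvl (0.14), Rfx2 (0.16), a transcription factor of spermatids, and Sgca (0.16), with 431 genes within 0.5. Nearest to Pnpla2 were Samd8 (0.15), Cct4 (0.17) and Ap3b1 (0.17), with 369 genes within 0.5, and Lipe and Pnpla2 were 0.48 apart. Adipoq had Ccnl2 (0.11), Sgsh (0.12) and Acp5 (0.13) nearest and 755 genes within 0.5. Pparg had Fut1 (0.14), Vmn1r231 (0.15) and Uimc1 (0.16) nearest and 1327 genes within 0.5.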

How the data were processed

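Total RNA of testis, epididymis and SVF was hybridised in 3 dye swaps on 6 arrays of 2 colours. The authors deposited 1 log ratio for each of 25344 probes and array, read here as log2. Its base, its direction and any background correction or normalization were not given in the sources used here. Array medians ran from 0.005 to 0.114 and values from -8.41 to 10.25. The sign was turned so that each ratio has the tissue named first as numerator, with Cy5 as the assumed numerator of the deposited ratio. Of 21112 annotated probes, 20456 were named by gene ID, 220 by symbol and 248 by the annotated name, 158 with a non-mouse symbol and 30 with several genes were left out, and 4232 probes had no annotation row. Probes of 1 gene were averaged. With 1 RNA sample per tissue no test was made, and no p-value is given.

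A gene was called at a log2 ratio of at least 1 in size on both arrays. The number of arrays limits the precision. Members, lists and the naming rule were chosen with earlier results of these data known. Named were all members, of each list up to 4 called genes with the largest ratios in a comparison and up to 2 called against the list's median, and the 3 genes most like each member. The alternatives were median centring, a least-squares loop estimate, 2-fold on the mean alone, 4-fold, natural logarithms, the median over probes, and each array left out. Motifs were sought in RefSeq windows of 250 bases (GRCm38.p6). Python 3.11.15, pandas 2.3.3 and numpy 2.4.6 were used.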

Additional observations from a re-analysis of the deposited data

Results flagged for a closer look

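Of the members and all listed genes, Scd1, Elovl6, Gata3, Car3, Lcn8 and Krt18 were called in opposite directions in testis and in epididymis when each was set against SVF. The share of all named genes with such opposite calls is not given here, so nothing is read from the number of these genes. For Scd1 the log2 ratio over SVF was -2.69 in testis and 1.29 in epididymis, a difference of 3.97. For Elovl6 it was -2.01 and 3.95, a difference of 5.95. For Gata3, a transcription factor that restrains fat cell formation, it was -1.82 and 2.03, a difference of 3.86. For the marker genes the ratios over SVF were -1.43 and 1.49 for Car3 (a difference of 2.92), -1.38 and 3.42 for Lcn8 (4.80) and -2.14 and 3.31 for Krt18 (5.45). Car3 is a mature fat cell marker, and Lcn8 and Krt18 were listed as markers of epididymal epithelium. Both ratios share the SVF RNA, and the differences were not tested. The direct ratios of epididymis over testis were 3.54 ± 0.24, 3.58 ± 1.38 and 3.32 ± 0.41 for Scd1, Elovl6 and Gata3.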

How the results depend on the processing

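No called member changed direction under any alternative run, and Fabp4, Lpl and Scd1 against testis were called under all of them. At 4-fold on both arrays, 3 of 7 members were called for testis over SVF, 2 for epididymis over SVF and 3 for epididymis over testis. Lipe, Pnpla2 and Adipoq lost their calls, and Scd1 lost its call toward epididymis against SVF, so its opposite directions over SVF do not hold at 4-fold; the pathway genes called fell to 38, 25 and 26 of 170 in that order, from 70, 50 and 68. From single arrays, the members called numbered 6, 3 and 5 in the same order, as with both arrays. The pathway genes called ranged from 89 to 92 for testis over SVF, from 64 to 76 for epididymis over SVF (76 without array 1) and from 84 to 92 for epididymis over testis. Read as natural logarithms, Adipoq was also called in epididymis against SVF (-1.15), and Fabp4 stood at -7.41 for testis over SVF. Centring, the loop estimate and natural logarithms gave 63 values of single members, of which 19 moved by more than the SD of the 2 arrays, 15 of them under natural logarithms; the other alternatives keep a member's mean or, with 1 of 2 arrays left out, can only shift it by less than that SD. Each member had 1 probe, so its probes could not be compared. A value from 1 array has no error. No paired analysis was possible because each dye swap is 1 pair of RNAs. Signal over background was not analysed here, so ratios of dim spots were not set apart.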
